A study of Mus musculus with 16 samples.

Results

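Solute carriers of the families that move ions, phosphate, sulfate and metals were compared between kidney and liver of the mouse. They were chosen by a rule on gene symbols, set with earlier results of these data known. The rule took symbols that begin with Slc, a number and a. It left out the families numbered 1, 2, 3, 5, 6, 7, 15, 16, 22, 25, 36, 38 and 43, and the genes Slc27a5 and Slc26a4. This rule found 82 of the 9669 genes named by a probe with a single symbol, from 32 families and on 98 probes. Of these, 53 belong to 9 groups that carry ions, phosphate, sulfate or metals, and the other 29 carry bile acids, urea, vitamins, nucleosides, nucleotide sugars, fatty acids, choline, organic cations, transmitters, sugars or amino acids, or are adaptor proteins named after a carrier. The name of the set therefore describes most of its members but not all. Groups follow symbols and families, so single members of the 9 may carry something else.

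The mice were wildtype males of the inbred strain C3HeB/FeJ, aged 105 ± 5 days, and their RNA was measured on 16 cDNA arrays with 2 colours. On 7 kidney arrays, the left kidney of mouse 1, 2 or 3 (3, 3 and 1 arrays) was hybridised together with a pool of 5 livers. On 9 liver arrays, the dorsal lobe of the liver of the same mice (3 arrays each) was hybridised together with a pool of 5 kidneys. All mice were untreated as far as the labels say, and each array held 15480 to 19432 values on 20419 probes. A pool is 1 RNA on all its arrays and shows no spread between its animals. Depth in the sense of counts does not exist for such ratios. The number of mice limits the precision.

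Kidney and liver handle inorganic ions in different ways. Proximal tubule cells take phosphate, sulfate, bicarbonate and dicarboxylates back from the filtrate with sodium-coupled carriers, and later segments adjust salt and acid. Hepatocytes store iron and zinc, make the plasma proteins that bind metals, and send bile acids into bile. Carriers of one family can face opposite sides of a cell or sit in different membranes inside it, so a family name says what is carried more than where.

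Every ratio is given as the log2 of kidney over liver, so 1 stands for a doubling in kidney and -1 for a doubling in liver. On the deposited scale, Alb, the hepatocyte's main plasma protein, averaged 8.21 on kidney arrays against -7.57 on liver arrays, while Kap, a protein of the proximal tubule, averaged -6.02 and 6.08. The deposited ratio was therefore read as pool over single mouse, opposite to the order in the sample titles, and the sign was turned on the kidney arrays. If the order of the titles held, every word kidney and liver below would change places, with sizes and tests as they are. Turned this way, 6 of 6 proximal tubule markers were higher in kidney (median 5.04), and 6 of 6 hepatocyte markers were higher in liver (median -7.80), which the choice of sign had partly fixed. Of the later tubule, 2 of 3 markers for the loop of Henle with the distal tubule and 2 of 3 for the collecting duct were higher in kidney, as were both for the glomerulus. Pvalb (-0.62) and Scnn1a (-0.12) did not pass. Of other cells, the macrophage markers Clec4f (-1.91) and C1qa (-1.12) were both higher in liver, and none of the 10 measured markers of red cell precursors, adrenal cortex, fat, pancreas and muscle passed the test. The part of other cell types in the carriers' values was not tested, and in whole organs a difference in cell number cannot be told apart from a difference in RNA per cell.

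The labels say that ratios were scaled to a median of 1 on each array. This held on the 10 arrays of mice 1 and 3, but on the 6 arrays of mouse 2 the median log2 of kidney over liver was -1.49 to -1.19. Over bright probes, meaning those whose ratio seldom recurs exactly on an array, mouse 2 differed from mice 1 and 3 by only -0.21 on kidney arrays and -0.35 on liver arrays. Values were kept as deposited for the tests, and calls that change after centring each array are given with the group they belong to. Centring takes out the whole median of an array, which in mouse 2 was larger than its difference over bright probes.

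Of the 82 carriers, 80 had values in at least 2 mice on each kind of array and were tested with limma, with Benjamini-Hochberg adjustment over all 9047 genes tested. Slc4a2 and Slc9a2 had too few values. At an adjusted p of 0.05, 11 carriers (13.8%) were higher in kidney, where 5.47% of all genes tested were, and 6 (7.5%) were higher in liver, where 8.71% of all genes were. The other 63 did not pass. The median over the carriers was -0.26 and that over all genes -0.48, or 0.20 and -0.011 after centring. The carriers higher in kidney were Slc13a1, Slc44a4, Slc17a3, Slc13a3, Slc51a, Slc9a8, Slc27a2, Slc12a8, Slc34a3, Slc17a1 and Slc19a1, by 2.51-fold to 35.6-fold. Those higher in liver were Slc17a7, Slc29a1, Slc39a14, Slc20a2, Slc30a1 and Slc32a1, by 1.91-fold to 3.90-fold. Of these 17, 16 had the same sign in every mouse on both kinds of arrays, the exception being Slc29a1. In the 9 groups of ion, phosphate, sulfate and metal carriers, 7 of 51 tested were higher in kidney and 3 in liver, against 4 and 3 of the other 29.

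The kidney and the liver of a mouse bear the same number in the labels. Over probes, the deviations of a mouse tended to go in the same direction on both kinds of arrays, though not in every gene. With the mouse as a random block (estimated correlation 0.92), 9 of the 11 kidney calls and 1 of the 6 liver calls, Slc17a7, passed at an adjusted p of 0.05 in limma. These are 11.2% and 1.25% of the carriers, where 2.31% and 3.68% of all genes passed in that fit. Without mouse 1, 9 carriers were higher in kidney (background 1.85%) and 1 in liver (background 4.24%). Without mouse 2 these were 25 (background 20.1%) and 7 (background 15.7%), and without mouse 3 they were 8 (background 1.96%) and 1 (background 4.08%). The liver calls of Slc29a1, Slc39a14, Slc20a2, Slc30a1 and Slc32a1 thus did not hold with the random block. With 1 value per mouse, in a fit that used a common SD for all genes, Slc29a1 passed (limma adjusted p = 0.0171) beside Slc17a7. With 1 value per mouse on centred arrays, 4 liver calls held, those of Slc17a7, Slc29a1 (limma adjusted p = 0.0216), Slc20a2 (0.0405) and Slc30a1 (0.0484), while Slc39a14 had 0.0568 and Slc32a1 0.450.

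**Figure D1:**
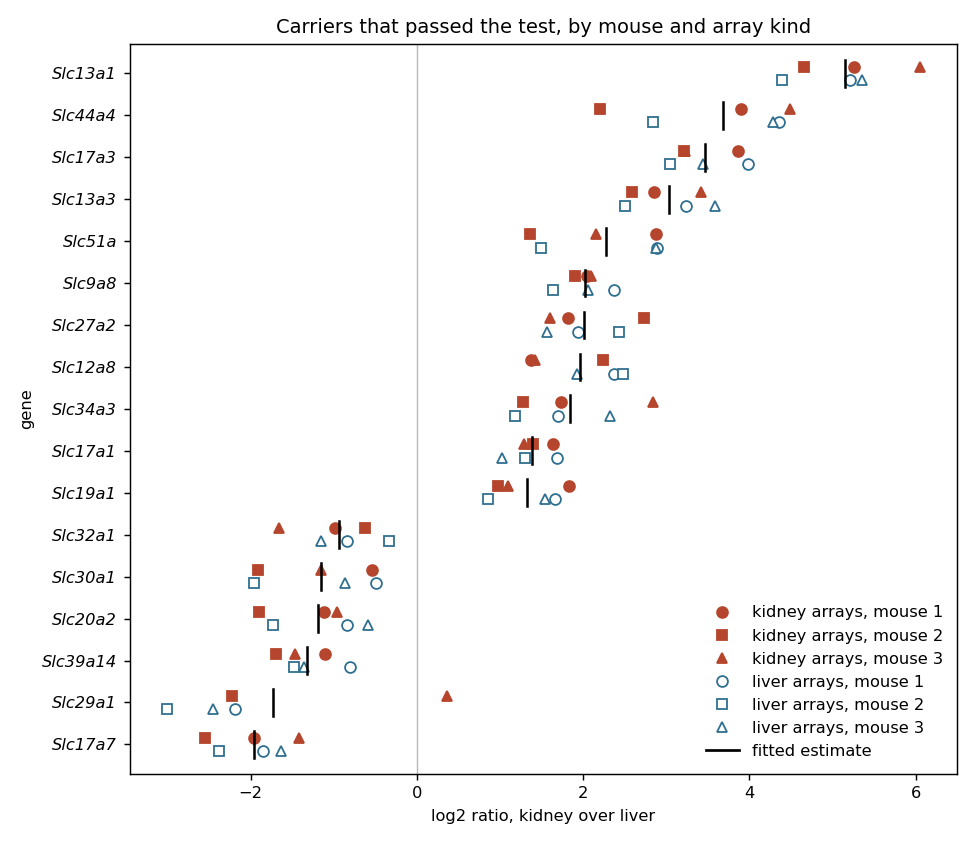
Log2 ratio of kidney over liver (horizontal axis) for the 17 carriers that passed the test, one per line, with a symbol for each mouse on kidney arrays (filled) and on liver arrays (open) and a black bar at the fitted estimate. Slc13a1 lies farthest right, between 4.39 and 6.05, and Slc29a1 is the only line with values on both sides of 0.

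The sulfate and dicarboxylate carriers of family 13 held the largest difference. Slc13a1, the sodium-sulfate cotransporter of the apical membrane of the proximal tubule, had ratios of 5.26, 4.66 and 6.05 on the kidney arrays of mice 1, 2 and 3 and of 5.21, 4.39 and 5.36 on their liver arrays. All 6 values were above 4, and mouse 2 was lowest on both kinds of arrays. The estimate was 5.15 (SE 0.26, limma adjusted p = 3.56e-06), a 35.6-fold excess in kidney. Slc13a3 moves dicarboxylates such as succinate across the basolateral membrane of tubule cells. It had 2.86, 2.58 and 3.42 on kidney arrays and 3.23, 2.50 and 3.59 on liver arrays. Its estimate was 3.03 (SE 0.24, limma adjusted p = 4.85e-05), or 8.18-fold, and again every value was far above 0. The other 2 members did not pass the test. Slc13a4, a sulfate transporter best known from placenta, had an estimate of -0.79 (95% interval -1.71 to 0.12), and Slc13a5, the citrate transporter known from liver, had -0.57 (95% interval -1.52 to 0.39), with no value for mouse 3 on kidney arrays in either. After centring Slc13a5 was at 0.023, so its sign is not settled.

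Of 9 tested genes grouped as carriers of phosphate and sugar phosphates, 3 had an excess in kidney and 1 in liver. The shares over all genes tested were 5.47% and 8.71%. Slc17a3 and Slc17a1 were first described as sodium-phosphate cotransporters and carry urate and other organic anions. The kidney arrays of mice 1, 2 and 3 gave 3.87, 3.22 and 3.23 for Slc17a3 and the liver arrays 3.99, 3.04 and 3.44, with an estimate of 3.46 (SE 0.23, limma adjusted p = 1.59e-05), an 11.03-fold excess in kidney. For Slc17a1 the values were smaller, at 1.64, 1.39 and 1.29 on kidney arrays and 1.69, 1.30 and 1.02 on liver arrays, and its estimate was 1.39 (SE 0.21, limma adjusted p = 0.00238). In both genes mouse 1 was highest on both kinds of arrays, and no value of Slc17a1 reached the lowest of Slc17a3. With the mouse as a block, Slc17a1 had an adjusted p of 0.0523, and without mouse 1 it had 0.0965. The probes are cDNAs, and how far each binds RNA of a related gene of family 17 was not tested.

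Slc17a3 and Slc17a1 follow each other directly among the protein-coding genes of mouse chromosome 13. Their promoter windows, the 250 bases before the start in RefSeq (GRCm38.p6, plus strand), are shown because these neighbours were both higher in kidney. They cover chr13:23839184-23839433 for Slc17a3 and chr13:23868768-23869017 for the first of 2 RefSeq starts of Slc17a1.
Slc17a3: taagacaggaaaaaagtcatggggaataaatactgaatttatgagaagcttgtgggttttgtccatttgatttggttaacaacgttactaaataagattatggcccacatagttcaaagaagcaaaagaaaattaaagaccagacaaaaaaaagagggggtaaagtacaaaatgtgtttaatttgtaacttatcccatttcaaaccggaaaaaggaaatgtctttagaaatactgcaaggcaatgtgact
Slc17a1: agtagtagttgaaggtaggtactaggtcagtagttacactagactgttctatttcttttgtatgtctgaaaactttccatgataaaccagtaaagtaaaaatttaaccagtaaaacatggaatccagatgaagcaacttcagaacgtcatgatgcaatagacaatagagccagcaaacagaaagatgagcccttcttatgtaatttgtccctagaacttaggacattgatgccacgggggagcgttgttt
Neither window holds any of the 4 short words searched for on both strands, GTTAAT of the HNF1 site, CAAAGT of the HNF4A site, and TGCACNC and TGCGCNC of the metal response element. No capitals therefore appear in them, and nothing follows from this for the factors.

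Slc34a3, a sodium-phosphate cotransporter of the proximal tubule brush border, had 1.74, 1.27 and 2.84 on kidney arrays and 1.69, 1.18 and 2.33 on liver arrays. Mouse 3 was highest and mouse 2 lowest on both. The estimate was 1.84 (SE 0.28, limma adjusted p = 0.00239), a 3.58-fold excess in kidney, and without mouse 3 the adjusted p was 0.0583. In the opposite direction, Slc20a2, a widely expressed sodium-phosphate cotransporter that also serves as a retrovirus receptor, had -1.12, -1.90 and -0.96 on kidney arrays and -0.84, -1.73 and -0.59 on liver arrays. Its estimate was -1.19 (SE 0.25, limma adjusted p = 0.0135), with an adjusted p of 0.128 with the mouse as a block. Its relative Slc20a1 was at -0.22 (95% interval -0.67 to 0.24). Slc37a3 and Slc37a2, members of the sugar phosphate exchanger family, had -0.68 and -0.66 without passing the test. Slc37a4, which brings glucose 6-phosphate into the endoplasmic reticulum of both organs for the last step of glucose release, was at 0.023 (95% interval -0.72 to 0.76).

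Genes around phosphate and mineral balance that are no carriers were read from a separate list. Of 9 tested, 4 passed, each with its excess in kidney. They were S100g, a calcium-binding protein of the distal tubule (4.66), Pth1r, the parathyroid hormone receptor (3.27), Alpl, tissue-nonspecific alkaline phosphatase (1.84), and Vdr, the vitamin D receptor (1.59), with limma adjusted p-values of 8.67e-05, 4.33e-05, 0.00485 and 0.0110. All 4 calls held with the mouse as a block. In the fit without it, 5.47% of all genes tested were higher in kidney and 8.71% in liver. After centring, Casr (1.16), Fgfr1 (0.82) and Atp2b1 (0.50) passed too, which made 7 of 9 higher in kidney, where 19.3% of all genes were. For use and turnover of sulfate, 2 of 9 genes had an excess in kidney and 3 in liver. Cdo1, which oxidises cysteine at the start of sulfate formation, was at -3.19, and the sulfotransferases Sult1a1 and Sult2b1 were at -3.10 and -2.52. Bpnt1, which clears the adenosine bisphosphate left by sulfotransferases, was at 1.62 and Sqor, which oxidises hydrogen sulfide, at 1.32. Sqor had an adjusted p of 0.09995 with the mouse as a block, and the other 4 calls of this list held. Centring added Suox (0.94) as higher in kidney and Tst (-0.64) and Ethe1 (-0.49) as higher in liver.

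Among sodium-proton exchangers, 1 of 3 tested passed. Slc9a8, an exchanger of the Golgi and of the apical membrane of tubule cells, had 2.05, 1.90 and 2.09 on kidney arrays and 2.38, 1.64 and 2.06 on liver arrays, values that lay close together in all mice. The estimate was 2.02 (SE 0.21, limma adjusted p = 2.52e-04), a 4.06-fold excess in kidney. Its 2 probes had estimates of 1.65 and 2.39. Slc9a9, an exchanger of endosomes, and Slc9a5, known from brain, were at -0.59 and -0.17 and did not pass. Without mouse 2 both were positive, with Slc9a5 at 0.41 and past the threshold (limma adjusted p = 0.0401) and Slc9a9 at 0.016 (0.942). Of 2 adaptor proteins named after carriers, Slc9a3r1, which anchors exchangers and phosphate carriers at the brush border, was at -0.70 (95% interval -1.36 to -0.034, limma adjusted p = 0.133, or 0.446 with the mouse as a block) and Slc4a1ap at -0.23.

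None of the 7 tested members of families 4 and 26, the bicarbonate and chloride exchangers and cotransporters, passed the test. Slc4a1, the anion exchanger of red cells and of acid-secreting collecting duct cells, was nearest at -1.17 (95% interval -1.93 to -0.42, limma adjusted p = 0.0525, or 0.234 with the mouse as a block). Its values were -0.60 and -1.82 on kidney arrays of mice 1 and 2 and -0.77, -1.97 and -0.65 on the liver arrays. All were below 0, and mouse 2 was far lower than the others. The red cell precursor marker Alas2 was at -0.61, and its part in the value of Slc4a1 was not tested. Slc26a11 was at -0.71 and the sulfate-oxalate exchanger Slc26a1 at 0.038 (95% interval -0.49 to 0.57). After centring, Slc4a1 passed as higher in liver at -0.60, and Slc4a11 and the sulfate transporter Slc26a2 passed as higher in kidney at 0.76 and 0.71.

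In the cation-chloride family, 1 of 5 tested members passed. Slc12a8 had 1.38, 2.24 and 1.42 on kidney arrays and 2.37, 2.48 and 1.93 on liver arrays. It was one of 3 called carriers whose mouse 2 lay above the mean of mice 1 and 3. The estimate was 1.97 (SE 0.22, limma adjusted p = 4.66e-04), or 3.91-fold higher in kidney. Slc12a5, a potassium-chloride cotransporter known from neurons, was at 0.54 (95% interval -0.021 to 1.11), and Slc12a9 was at -0.52. After centring, Slc12a5 (0.996) and the potassium-chloride cotransporter Slc12a7 (0.89) passed as higher in kidney. The sodium-calcium exchangers Slc8a2 (-0.58), Slc24a2 (-0.45) and Slc24a3 (-0.37) did not pass in either scaling.

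Partner genes of acid and sodium transport gave 3 of 10 tested higher in kidney and 1 in liver. Over all genes tested, these shares were 5.47% and 8.71%. Car12, a membrane-bound carbonic anhydrase, was at 4.05, Car15 at 2.31 and the mitochondrial Car5b at 1.21, with limma adjusted p-values of 2.63e-05, 0.00106 and 0.00776. Fxyd2, the gamma subunit of the sodium pump, was higher in liver at -1.34 (limma adjusted p = 0.0241), with values of -0.53, -2.46 and -0.67 on kidney arrays and -1.32, -2.17 and -0.90 on liver arrays. Whether its cDNA reads RNA of Fxyd2 alone was not tested. With the mouse as a block, Car5b had an adjusted p of 0.111 and Fxyd2 of 0.149. After centring, Car2 (0.78), Pdzk1 (0.70) and Car14 (0.60) passed too, which made 6 of 10 higher in kidney, where 19.3% of all genes were. None of the 10 tested kinases and regulators of salt transport passed, among them Wnk4 at -0.95 and Hsd11b2 at 0.87. After centring these passed in opposite directions, Wnk4 at -0.50 and Hsd11b2 at 1.32, as did Stk39 at 0.60.

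**Figure D2:**
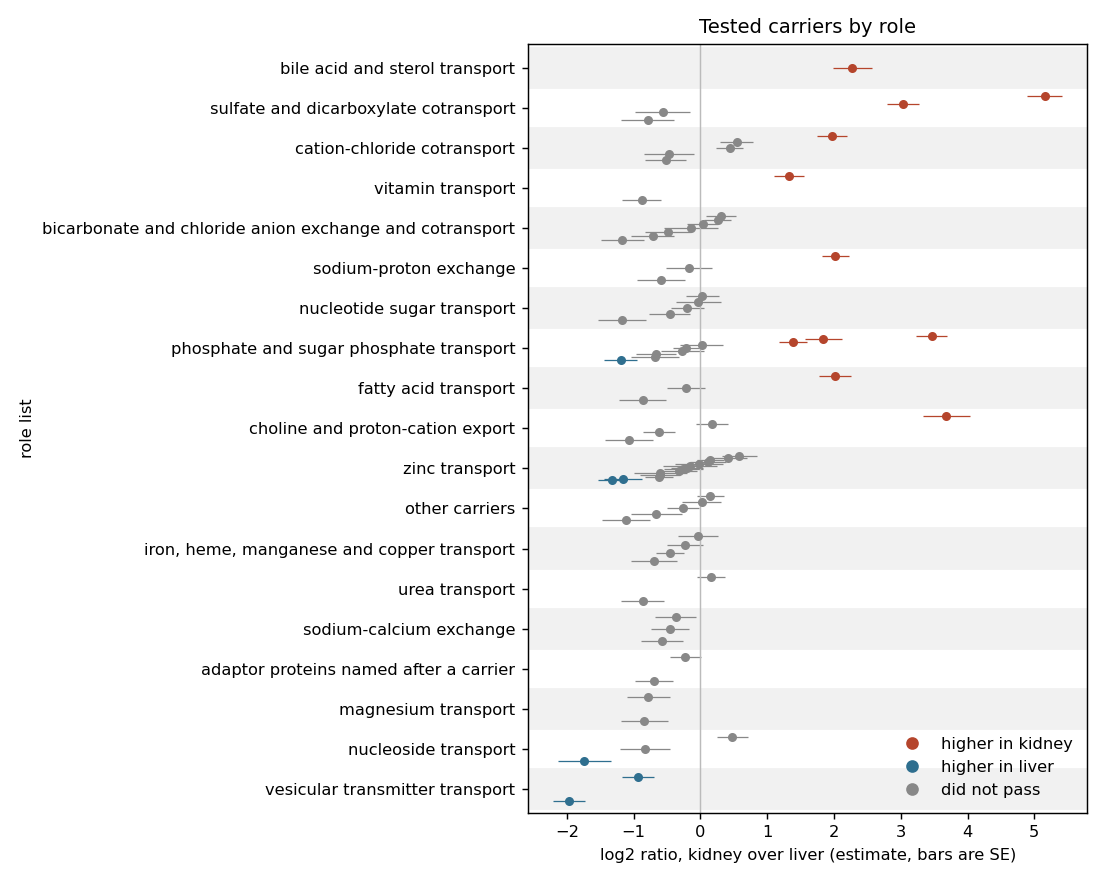
Log2 ratio of kidney over liver (horizontal axis) of the 80 tested carriers as 1 point each with its SE as a bar, in a band for each of the 19 groups by role, with carriers that passed the test in colour. Most points lie between -1 and 1, and the carriers of sulfate and dicarboxylates reach the highest value, 5.15.

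Of 14 tested zinc carriers of families 30 and 39, 2 passed, each with its excess in liver. Of all genes tested, 5.47% were higher in kidney and 8.71% in liver. Slc39a14, which brings zinc, iron and manganese into hepatocytes, had -1.10, -1.70 and -1.47 on kidney arrays and -0.81, -1.48 and -1.35 on liver arrays. All values were below 0, with mouse 1 nearest to 0 on both kinds. The estimate was -1.32 (SE 0.21, limma adjusted p = 0.00389), a 2.49-fold excess in liver, and with the mouse as a block the adjusted p was 0.0693. Slc30a1, the zinc exporter of the plasma membrane, had -0.54, -1.91 and -1.16 on kidney arrays and -0.50, -1.96 and -0.87 on liver arrays. Mouse 2 lay 1.17 below the mean of the others. The estimate was -1.16 (SE 0.28, limma adjusted p = 0.0278), with similar values of -1.11 and -1.17 on its 2 probes, and the adjusted p was 0.160 with the block. The other 12 zinc carriers ranged up to 0.58 and did not pass, with Slc39a4 at -0.62 and Slc39a11 at -0.60 farthest below 0. After centring, Slc30a9 (1.03), Slc39a13 (0.88) and Slc39a3 (0.68) passed as higher in kidney, and Slc39a14 and Slc30a1 still passed as higher in liver. The shares over all genes were then 19.3% and 12.4%.

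The promoter window of Slc30a1, a gene known to be induced by zinc through the metal response element, is shown because it holds 2 of the 4 words. It covers chr1:191906531-191906780 in GRCm38.p6, plus strand, and capitals mark CAAAGT and the reverse complement of TGCACNC.
Slc30a1: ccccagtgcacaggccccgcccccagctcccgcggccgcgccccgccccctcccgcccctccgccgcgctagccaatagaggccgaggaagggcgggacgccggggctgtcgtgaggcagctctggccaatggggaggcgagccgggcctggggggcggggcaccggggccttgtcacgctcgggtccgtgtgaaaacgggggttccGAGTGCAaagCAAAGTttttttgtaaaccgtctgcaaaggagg
Among all 27025 genes with such a window, TGCACNC occurs in 11.8% and CAAAGT in 14.1%, so a match is a description and not a site. The word TGCGCNC occurs in 13.99% of all windows, and GTTAAT in 7.49%. Of 64 carriers with a window, 12 hold TGCACNC, 12 hold CAAAGT, 21 hold TGCGCNC and 2 hold GTTAAT. Among called carriers with a window, TGCACNC is in 1 of 10 higher in kidney and 2 of 4 higher in liver. For CAAAGT these are 2 and 2, for TGCGCNC 2 and 1, and for GTTAAT 1 and 0.

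The families grouped as iron, heme, manganese and copper carriers gave 4 tested members and no call. Slc49a4, placed here by its family alone, was at -0.69 (95% interval -1.48 to 0.099). The copper importer Slc31a1 was at -0.45 (95% interval -0.93 to 0.031). Slc11a2, the ferrous iron transporter of endosomes and the apical gut membrane, was at -0.23 over 3 probes that spread from -1.03 to 0.45. The heme transporter Slc48a1 was at -0.033, and passed as higher in kidney at 0.42 after centring. Of the magnesium carriers, Slc41a3 (-0.84) and Slc41a2 (-0.78) did not pass in either scaling.

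Of 15 tested genes of iron handling outside the carriers, 2 had an excess in kidney and 5 in liver. Among all genes tested, 5.47% were higher in kidney and 8.71% in liver. The median over this list was -0.64 and that over all genes -0.48, or -0.19 and -0.011 after centring. Hp and Hpx, the plasma proteins that bind hemoglobin and heme, were at -7.70 and -7.60. Hamp, which encodes the iron hormone hepcidin, was at -4.58, the copper oxidase Cp at -4.45 and Hjv, a coreceptor in hepcidin control, at -2.003, and all 5 calls held with the mouse as a block. Hpx is also one of the hepatocyte markers above. Ncoa4, the ferritin receptor of autophagy (1.20), and the ferritin heavy chain Fth1 (0.84) were higher in kidney with limma adjusted p-values of 0.0278 and 0.0411, which were 0.138 and 0.355 with the block. After centring, Aco1 (1.07) and Bmp6 (1.02) passed as higher in kidney and Steap3 (-0.55) as higher in liver. For zinc and copper handling, 1 of 10 passed, the copper pump Atp7a at 1.14 (limma adjusted p = 0.0145, or 0.167 with the block), while the metallothioneins Mt1 and Mt2 were at -0.70 and 0.58 and did not pass. After centring, Mt2 (1.03), Cox17 (0.98) and Mtf1 (0.89) passed too, which made 4 of 10 higher in kidney, where 19.3% of all genes were.

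**Figure D3:**
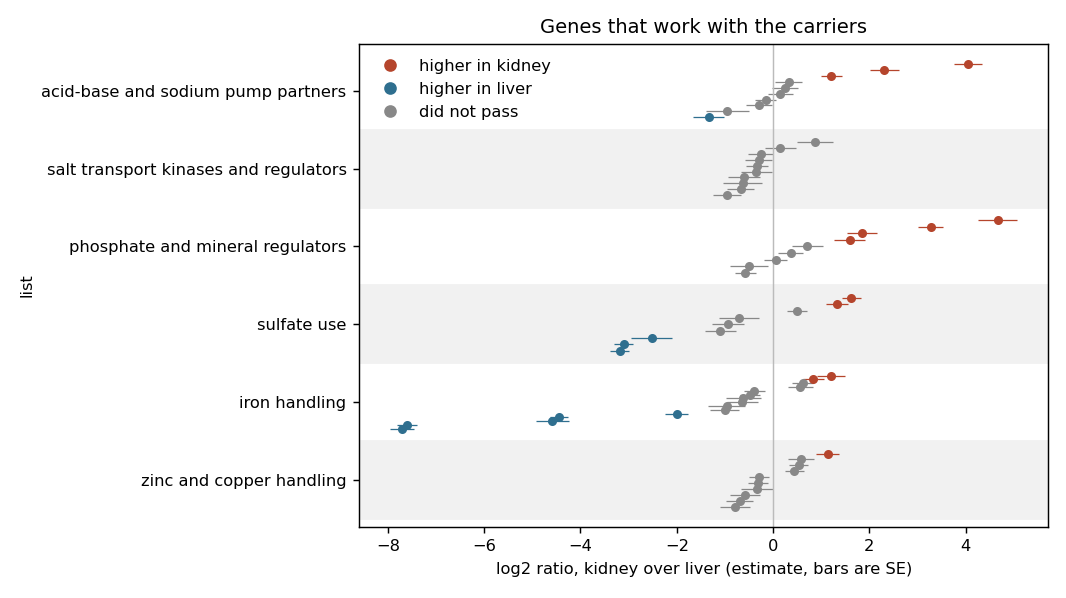
Log2 ratio of kidney over liver (horizontal axis) of tested partner genes, 1 point per gene with its SE as a bar, in a band for each of 6 lists of genes that work with the carriers, with genes that passed the test in colour. Iron handling reaches from -7.70 to 1.20, while no salt transport kinase or regulator passed.

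The only tested carrier of bile acids and sterols, Slc51a, was higher in kidney. It encodes a subunit of a basolateral exporter of bile acids and steroid conjugates. Its values were 2.88, 1.36 and 2.16 on kidney arrays and 2.88, 1.49 and 2.88 on liver arrays, with mouse 2 lowest on both. The estimate was 2.27 (SE 0.29, limma adjusted p = 9.69e-04), or 4.84-fold.

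Slc44a4, a choline transporter-like protein that carries thiamine pyrophosphate in human colon cells, had the second largest estimate. Its values were 3.90, 2.21 and 4.49 on kidney arrays and 4.36, 2.85 and 4.28 on liver arrays. Mouse 2 lay 1.73 below the mean of the others, yet every value was above 2. The estimate was 3.68 (SE 0.35, limma adjusted p = 1.55e-04), a 12.8-fold excess in kidney. In the same group, Slc47a2, a proton-coupled exporter of organic cations, was at -1.07 (limma adjusted p = 0.0874) and the choline transporter Slc44a1 at -0.62, and Slc47a2 passed as higher in liver at -0.62 after centring. The promoter window of Slc44a4, at chr17:34914216-34914465 in GRCm38.p6, plus strand, is shown because it is the strongest kidney carrier whose window holds CAAAGT, in capitals.
Slc44a4: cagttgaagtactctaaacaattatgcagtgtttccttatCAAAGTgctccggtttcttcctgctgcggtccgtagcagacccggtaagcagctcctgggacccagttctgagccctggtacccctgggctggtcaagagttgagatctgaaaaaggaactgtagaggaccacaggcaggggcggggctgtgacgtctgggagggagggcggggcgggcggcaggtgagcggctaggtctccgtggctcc

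One of 3 fatty acid carriers passed. Slc27a2, an acyl-CoA synthetase for very long chains that also helps fatty acids into cells, had 1.82, 2.73 and 1.60 on kidney arrays and 1.94, 2.43 and 1.56 on liver arrays. Mouse 2 was highest on both kinds of arrays. The estimate was 2.01 (SE 0.24, limma adjusted p = 6.66e-04), or 4.04-fold higher in kidney. Slc27a1 and Slc27a4 were at -0.87 and -0.22 and did not pass.

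Of 2 vitamin carriers, Slc19a1, the reduced folate carrier, had 1.83, 0.98 and 1.09 on kidney arrays and 1.66, 0.86 and 1.54 on liver arrays. The estimate was 1.33 (SE 0.23, limma adjusted p = 0.00549), and the adjusted p was 0.0932 with the mouse as a block, 0.138 without mouse 1 and 0.0953 without mouse 3. Slc46a1, the proton-coupled folate transporter, was at -0.88 (95% interval -1.55 to -0.21, limma adjusted p = 0.0830, or 0.370 with the block). The difference between these folate carriers was not tested.

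Both measured vesicular transmitter carriers passed as higher in liver on the deposited values, but only Slc17a7 held with the mouse as a block. Slc17a7, which fills synaptic vesicles with glutamate, had -1.96, -2.55 and -1.42 on kidney arrays and -1.85, -2.38 and -1.63 on liver arrays. Mouse 2 was lowest on both, and all 6 values were below -1. The estimate was -1.96 (SE 0.24, limma adjusted p = 6.56e-04), a 3.90-fold excess in liver, with an adjusted p of 0.00444 with the mouse as a block. Slc32a1, which fills vesicles with GABA and glycine, had -0.99, -0.62 and -1.66 on kidney arrays and -0.84, -0.33 and -1.15 on liver arrays. Its estimate was -0.93 (SE 0.24, limma adjusted p = 0.0322), but the adjusted p was 0.290 with the block, and after centring it was at -0.48 with an adjusted p of 0.327.

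Among nucleoside carriers, Slc29a1, the equilibrative transporter of the plasma membrane, had -2.22 and 0.37 on the kidney arrays of mice 2 and 3, no value for mouse 1, and -2.18, -3.003 and -2.45 on liver arrays. The value of 0.37 comes from the single kidney array of mouse 3, and all other averages were below -2. Single kidney arrays ran from -3.37 to 0.37 with a median of -1.64, and the highest single liver array was at -1.97. The estimate was -1.74 (SE 0.40, limma adjusted p = 0.0259), with an adjusted p of 0.184 with the mouse as a block. Slc28a2, a sodium-coupled purine nucleoside transporter, was at -0.82, and the lysosomal Slc29a3 was at 0.48 and passed as higher in kidney at 0.93 after centring.

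The remaining groups held no call. Of the urea carriers, Slc14a1, found in red cells and in vessels of the renal medulla, was at -0.87 (95% interval -1.59 to -0.14, limma adjusted p = 0.103, or 0.376 with the mouse as a block). Slc14a2, the urea transporter of collecting duct and thin limb, was at 0.16 (95% interval -0.34 to 0.65). Among 5 nucleotide sugar carriers of the Golgi, Slc35a3 was at -1.17 (limma adjusted p = 0.0696) and Slc35a1, which carries CMP-sialic acid, at -0.46. Slc66a1, a lysosomal exporter of basic amino acids, was at -1.11 (limma adjusted p = 0.0728) and Slc45a1 at -0.66. After centring, Slc14a1 (-0.41), Slc35a3 (-0.61) and Slc66a1 (-0.66) passed as higher in liver, and Slc35a2 (0.48), Slc35a4 (0.42), Slc37a4 (0.48) and Slc45a4 (0.58) as higher in kidney.

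Centring moved all estimates up, by a median of 0.45 in carriers with all 6 averages, and changed the number of calls. With each array centred on its median, 24 carriers (30.0%) were higher in kidney, where 19.3% of all genes were, and 10 (12.5%) were higher in liver, where 12.4% were. All 11 kidney calls and 5 of 6 liver calls passed again, the exception being Slc32a1, and 13 carriers were added for kidney and 5 for liver. These counts come from the fit without the mouse as a block. With 1 value per mouse on centred arrays, 16 carriers were higher in kidney in limma and 4 in liver. The shares over all genes were then 11.6% and 5.25%. Of the calls added by centring, 5 for kidney held there and none of those for liver. How far the offset of mouse 2 reached a carrier went with how often its values recur. In the 23 bright carriers the median difference of mouse 2 from mice 1 and 3 was -0.50, in the 17 dim ones -1.49, and in the 40 between or unrated -1.20. Of the bright carriers 14 were called, of the dim ones none, and of the others 3. The share of recurring values is read from the same ratios, and a ratio far from 0 can fail to recur at any brightness, so this split is a description.

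**Figure D4:**
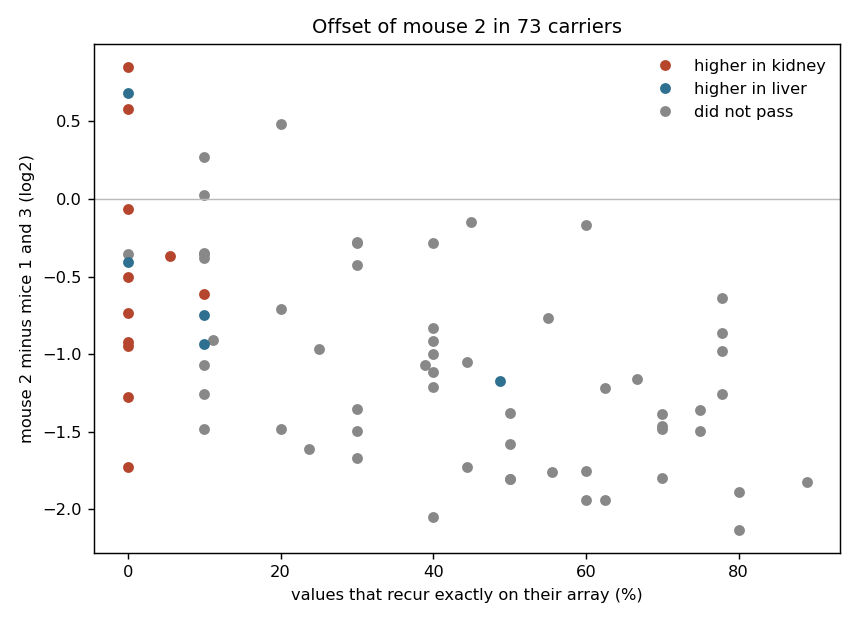
Difference of mouse 2 from the mean of mice 1 and 3, in log2 of kidney over liver (vertical axis), against how many of its values recur exactly on their array, in percent (horizontal axis), 1 point for each of 73 carriers that have such a share. Bright carriers on the left have a median of -0.50 and dim ones on the right -1.49.

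The ratio read on kidney arrays, where single kidneys met the liver pool, was compared with that read on liver arrays, where single livers met the kidney pool. The absolute difference between both means had a median of 0.16 over the carriers, while the median SD between mice was 0.72 on kidney arrays and 0.64 on liver arrays. In the fit without a block, no carrier and none of all 9047 genes differed between both kinds at an adjusted p of 0.05, and at an unadjusted p of 0.05 there were 0 carriers and 17 genes (0.188%). That fit counts the shared deviations of a mouse as error of this difference. With the mouse as a random block, chosen as an alternative after seeing the data, 1 carrier (1.25%) and 61 genes (0.674%) passed in limma. The carrier was Slc29a1, with means that differed by 1.62 and an adjusted p of 0.00676 with the block.

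**Figure D5:**
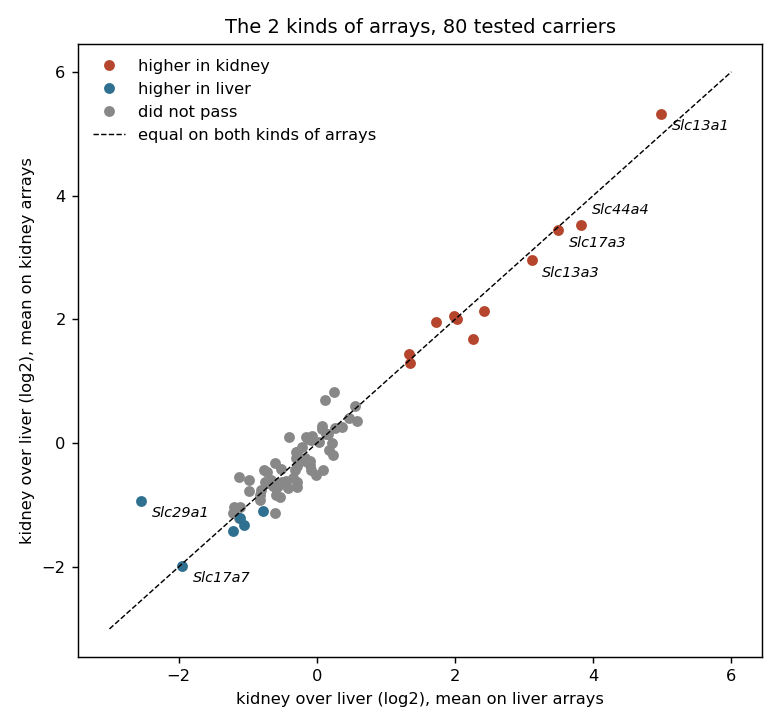
Mean log2 ratio of kidney over liver on kidney arrays (vertical axis) against that on liver arrays (horizontal axis), 1 point for each of 80 tested carriers, with a dashed line of equal values. The called carriers lie within 0.58 of the line except Slc29a1, which lies 1.62 above it.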

How the data were processed

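The authors deposited a log2 ratio per probe and array. Per the labels, indirect Cy3 or Cy5 labelling used 20 µg of total RNA, a GenePix 4000A read the slides, GenePix Pro 3.0 gave mean intensities minus local background, and ratios were scaled to a median of 1. The log base came from the values: spacings between frequent values matched whole-number ratios (numbers to 10, tolerance 1e-04) in 140 of 144 cases as log2, in 16 as log10 and in 0 as natural logarithm. The dye of each sample is not given in the sources used here.

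Probe names came from the platform annotation: a single symbol stood on 11723 probes, more than one on 806, none on 7890. Symbols were updated to RefSeq for 11590 probes and left as they were for 133. Hybridisations of a mouse and organ were averaged, then probes of a symbol. The 6 averages went into limma 3.58.1 (R 4.3.3) with an overall mean plus the array kind, for genes with values in at least 2 mice on each kind. Tests are two-sided with Benjamini-Hochberg adjustment at 0.05. Folds are 2 to the power of the absolute estimate. The fit was run on simulated averages that were independent of each other, with no deviation shared by a mouse. That run cannot show how the fit behaves where a mouse deviates on both kinds of arrays. Tables were made with Python 3.11.15 and pandas 2.3.3, figures with matplotlib 3.10.9. A probe was bright where at most 0.1 and dim where over 0.5 of its values recurred exactly on an array, where 8 or more of the 10 arrays of mice 1 and 3 had a value.

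Per the labels, a mouse number stands for 1 animal whose kidney and liver were both used. Deviations of mice 1, 2 and 3 from the mean correlated between both kinds at 0.59, 0.80 and 0.58 over 14688 probes. The probes are not independent. Because of these correlations, p-values without the block tend to be too small. For the deposited values, the paired values are given beside the results they change. For the calls added by centring, only the counts with 1 value per mouse are given. Whether mice were litter mates is not given.

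The members, role lists and partner lists were chosen with earlier results of these data known. Every carrier past the threshold is named with its estimate, as are the 2 carriers of each group with the largest absolute estimate that did not pass, carriers whose call changes after centring, and called partner genes. Slc26a1, Slc20a1, Slc24a3, Slc11a2, Mt1 and partner genes that passed only after centring were added after their values were seen. Promoters are RefSeq's (GRCm38.p6); the files name no build.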

Additional observations from a re-analysis of the deposited data

Results flagged for a closer look

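Slc29a1, the equilibrative nucleoside transporter, differed between both kinds of arrays. Its ratio of kidney over liver was higher by 1.79 on kidney arrays than on liver arrays in the limma fit with the mouse as a random block (adjusted p = 0.00676). The difference of the means was 1.62 in the fit without the block, with an unadjusted p of 0.0778 and an adjusted p of 1. It rests on 2 kidney values, -2.22 for mouse 2 and 0.37 for mouse 3, and the second of these is 1 array. No array stood apart from the others of its kind in 34 sets, which were the arrays of each kind for each of the 17 called carriers, although chance alone would mark about 5% of such sets.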

How the results depend on the processing

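Against 11 carriers higher in kidney and 6 higher in liver, centring each array gave 24 and 10. Aligning mouse 2 over bright probes gave 12 and 8. The kidney count was 16 with 1 value per mouse and centring. The liver count was 1 with the mouse as a random replicate block, 2 with 1 value per mouse, 4 with 1 value per mouse and centring, 1 on kidney arrays alone and 2 on liver arrays alone. Leaving out a mouse gave 8 to 25 higher in kidney and 1 to 7 higher in liver, and the kidney count of 25 and the liver count of 7 were those without mouse 2. Over all genes, 495 were higher in kidney, and this was 1749 after centring, 758 with mouse 2 aligned over bright probes, 209 with the random block, 251 with 1 value per mouse, 1045 with both 1 value per mouse and centring, 170 on kidney arrays alone, 296 on liver arrays alone and 142 to 1525 without a mouse. Against 788 higher in liver, the random block gave 333, 1 value per mouse 422, this with centring 472, kidney arrays alone 285 and leaving out a mouse 325 to 1188. Partner genes higher in kidney numbered 12, and 26 after centring, 7 with the random block, 19 with 1 value per mouse and centring, 6 on kidney arrays alone and 5 to 25 without a mouse. Those higher in liver numbered 9, and 8 to 14 without a mouse. The count of carriers that differ between both kinds of arrays was 0, and 1 with the random replicate block.

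Of 65 named carriers, those that changed sign had not passed the test on the deposited values. Slc9a5 passed once its sign had turned, without mouse 2 (0.41, limma adjusted p = 0.0401), as did Slc35a4 (0.0397 after centring, 0.0109 without mouse 2) and Slc48a1 (0.0280 and 0.0275). After centring Slc9a5 was at 0.29, Slc13a5 at 0.023, Slc31a1 at 0.0030, Slc27a4 at 0.23, Slc4a1ap at 0.23, Slc35a4 at 0.42, Slc48a1 at 0.42, Slc11a2 at 0.23, Slc20a1 at 0.24 and Slc24a3 at 0.00066. With 1 value per mouse and centring all of these but Slc13a5 and Slc24a3 were again positive. With mouse 2 aligned Slc35a4 was at 0.064 and Slc48a1 at 0.060. With 1 value per mouse Slc39a3 was at -0.0093 and Slc45a4 at -0.044. On kidney arrays alone Slc35a4 was at 0.072, Slc48a1 at 0.095, Slc45a4 at -0.20 and Slc26a1 at -0.10, and on liver arrays alone Slc9a5 at 0.085 and Slc35a2 at -0.070. Without dim probes Slc27a4 was at 0.22. Leaving out a mouse gave -0.96 to 0.016 for Slc9a9, -0.55 to 0.41 for Slc9a5, -0.50 to 0.20 for Slc27a4, -0.39 to 0.028 for Slc4a1ap, -1.03 to 0.025 for Slc45a1, -0.15 to 0.33 for Slc35a2, -0.36 to 0.53 for Slc35a4, -0.28 to 0.55 for Slc37a4, -0.33 to 0.43 for Slc48a1 and -0.41 to 0.13 for Slc11a2, the highest being without mouse 2 in each. It gave -0.12 to 0.26 for Slc26a1, and without mouse 3 Slc39a3 was at -0.0093 and Slc45a4 at -0.044, their only such values. The random block cost the calls of 7 named carriers and gained none. The cause of these changes was not tested. The fits with 1 value per mouse and on liver arrays alone took a common SD for all genes, which lowers the p-values of genes that vary more. The pools' own spread and the dye cannot be tested with these arrays, and no spot intensities were used, so signal over background is unknown.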

Other observations

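Slc51b, which encodes the partner subunit of Slc51a and is not among the carriers chosen, was measured as well. Its ratio of kidney over liver was 1.29, 0.56 and 1.11 on the kidney arrays of mice 1, 2 and 3 and 1.46, -0.53 and 1.65 on their liver arrays. The estimate was 0.92 (SE 0.32, limma adjusted p = 0.0900), while Slc51a was at 2.27. The difference between both subunits was not tested.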
